A study of Mus musculus with 26 samples.

Results

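The expression of 10 macrophage marker genes was measured in the left ventricle of hypertensive and normotensive mice given vehicle or Cmpd17b, a small-molecule agonist of formyl peptide receptors. The genes were taken by symbol from a table of 40413 genes: Adgre1 and Csf1r as markers of macrophages in general, Cd163, Mrc1, Lyve1, Folr2 and Timd4 as markers of resident macrophages, Ccr2 and Lgals3 as markers of recruited ones, and the inhibitory Fc receptor gene Fcgr2b. All 10 were in the table and all 10 passed the filter on low counts, among 15543 genes tested. Adult BPH/2J mice, an inbred strain with high blood pressure, and BPN/3J mice, its normotensive counterpart, were treated once daily for 28 days with vehicle or with Cmpd17b at 50 mg/kg/day by intraperitoneal injection. The groups used here held 7 libraries of BPN/3J mice on vehicle (BPN_vehicle), 5 of BPN/3J mice on Cmpd17b (BPN_Cmpd17b), 7 of BPH/2J mice on vehicle (BPH_vehicle) and 6 of BPH/2J mice on Cmpd17b (BPH_Cmpd17b), 25 in all, each taken as a separate mouse. No gene deletion or transgene is named in the labels. The strains are separate inbred lines, so every strain difference holds all their genetic differences at once.

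The heart holds macrophages of more than one origin. Resident cells, seeded before or around birth and maintained with little input from the blood, are recognised by surface proteins such as LYVE1, TIM-4 and FOLR2 and by the scavenger receptors CD163 and CD206. Monocytes that enter the tissue through the chemokine receptor CCR2 give rise to recruited macrophages, which often carry galectin-3. Several of these genes are also used by other cells: Lyve1 and Mrc1 by lymphatic and some other endothelium, Fcgr2b by B cells and liver sinusoidal endothelium, and Lgals3 by many epithelia, among them those of the kidney.

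Total counts per library ran from 25476100 to 48648200. Markers of ventricular cardiomyocytes (6 genes) summed to between 36000.3 and 55995.1 CPM (counts scaled to the size of each library) in the 25 libraries. The library labelled BPH_Cmpd17b replicate 7 had 29.9 CPM of these markers and 24218 CPM of 5 kidney markers, against at most 148 CPM in any other library, and was left out. Hepatocyte transcripts (6 markers) reached 360, 581 and 67.6 CPM in BPN_vehicle replicates 1, 2 and 4, against 1.97 to 12.7 CPM in the other BPN_vehicle libraries. BPH_Cmpd17b replicate 6 and BPN_vehicle replicate 7 had low sample quality weights (0.330 and 0.0799). BPN_vehicle replicate 7 also had 1133 CPM of 5 vascular endothelium markers, against at most 577 CPM in any other library. BPH_vehicle replicate 7 had 215 CPM of 3 atrial markers, against at most 9.11 CPM in any other library. Where leaving out any of these libraries ended a call of a member or other macrophage, ligand or receptor gene named below, this is stated. The adjusted p is given, or the highest over the libraries left out in turn. Calls of marker genes of other cells were not rechecked in this way. All values below are counts scaled by TMM to CPM, given as mean ± SD over mice, and a log2 difference ± SE with its adjusted p comes from edgeR's quasi-likelihood test with a term for the 2 batches named in the labels. A gene is said to have risen or fallen where the p adjusted over all genes tested was under 0.05. In whole tissue, fewer cells of a type and less RNA per cell cannot be told apart.

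**Figure D1:**
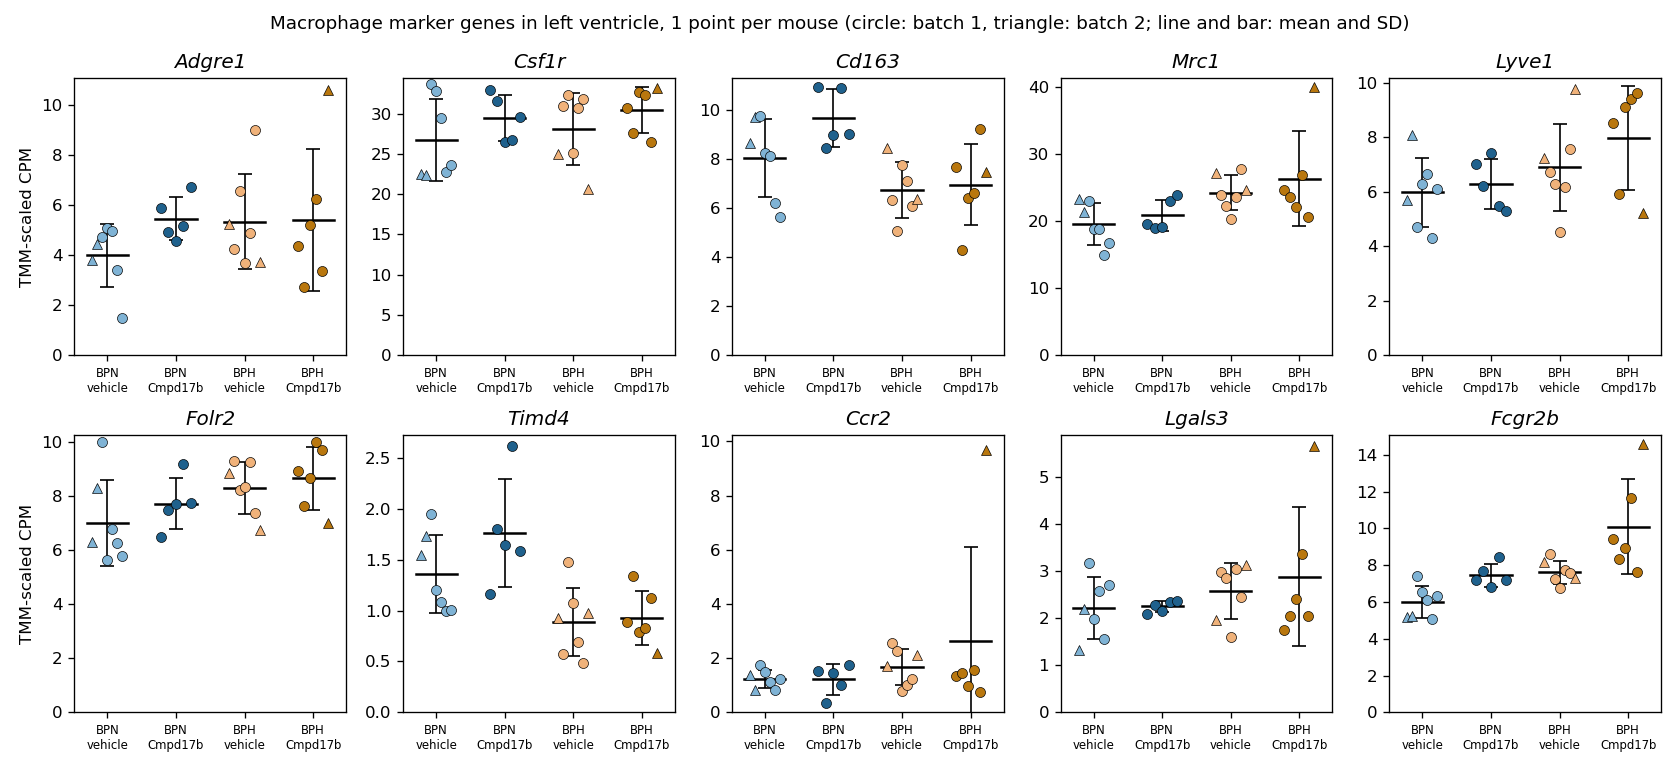
TMM-scaled CPM (vertical axes, starting at 0) of the 10 macrophage marker genes in the 4 groups, with 1 point per mouse, circles for batch 1 and triangles for batch 2, and the mean with its SD as a line and bar. The mean of Fcgr2b is lowest in BPN_vehicle (5.99 CPM) and highest in BPH_Cmpd17b (10.1 CPM), where replicate 6 is at 14.6 CPM. Timd4 lies lower in both BPH/2J groups. BPH_Cmpd17b replicate 6 stands far above the others for Ccr2 (9.69 CPM) and Mrc1 (40.0 CPM).

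The reference promoters of the 4 members whose levels differed by strain are shown because these genes moved in opposite directions, Mrc1 and Fcgr2b upwards and Cd163 and Timd4 downwards in BPH/2J. Each run is the 250 bases before the start of the gene on its own strand, from RefSeq, build GRCm38.p6, which is the C57BL/6J reference and not the sequence of either study strain. Capitals mark matches on either strand to GGAAGT, the core recognised by PU.1, the ETS factor of myeloid cells (written ACTTCC where it lies on the opposite strand). The positions are chr2:14229164-14229413 (plus strand) for Mrc1, chr1:170976072-170976321 (minus strand) for Fcgr2b, chr6:124304401-124304650 (plus strand) for Cd163 and chr11:46810549-46810798 (plus strand) for Timd4.
Mrc1: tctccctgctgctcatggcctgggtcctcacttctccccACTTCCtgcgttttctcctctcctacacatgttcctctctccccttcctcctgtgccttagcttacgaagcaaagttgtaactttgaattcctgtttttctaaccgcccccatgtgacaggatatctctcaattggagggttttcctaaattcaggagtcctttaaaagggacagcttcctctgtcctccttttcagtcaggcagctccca
Fcgr2b: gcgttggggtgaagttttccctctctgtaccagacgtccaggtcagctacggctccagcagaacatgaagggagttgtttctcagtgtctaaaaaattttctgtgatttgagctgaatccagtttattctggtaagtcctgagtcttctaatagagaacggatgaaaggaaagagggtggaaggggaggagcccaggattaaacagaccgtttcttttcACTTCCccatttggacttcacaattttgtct
Cd163: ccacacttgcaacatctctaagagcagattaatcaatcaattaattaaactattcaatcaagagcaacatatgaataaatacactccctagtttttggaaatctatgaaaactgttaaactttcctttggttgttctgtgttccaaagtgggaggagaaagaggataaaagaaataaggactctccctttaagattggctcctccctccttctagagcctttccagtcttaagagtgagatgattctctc
Timd4: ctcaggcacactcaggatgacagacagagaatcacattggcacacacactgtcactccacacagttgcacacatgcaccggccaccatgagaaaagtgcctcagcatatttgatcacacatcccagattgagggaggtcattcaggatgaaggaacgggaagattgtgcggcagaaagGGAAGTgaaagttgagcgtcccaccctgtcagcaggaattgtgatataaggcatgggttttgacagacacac
The match lay 206 to 211 bases before the start in Mrc1, 26 to 31 bases before it in Fcgr2b and 67 to 72 bases before it in Timd4, and these letters did not occur in the Cd163 window. Of the 10 members 7 were in the promoter table, and 4 of those 7 genes (Mrc1, Folr2, Timd4 and Fcgr2b) held the motif in at least 1 window, while 6485 of 32851 promoters of the same length held it (19.7%). The 7 genes had 8 windows, and 1 window of Folr2 held no match, so genes and single promoters are not counted alike. A match is a description of the letters. It marked genes that were higher and genes that were lower in BPH/2J.

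Adgre1 encodes F4/80, an adhesion receptor that defines mouse tissue macrophages, and Csf1r encodes the receptor for colony stimulating factor 1, on which these cells depend. Adgre1 ran from 1.51 to 5.08 CPM with a median of 4.45 in BPN_vehicle, and from 3.68 to 9.01 CPM with a median of 4.87 in BPH_vehicle. In the BPN_Cmpd17b libraries it was at 5.88, 4.92, 4.57, 5.15 and 6.73 CPM, and in BPH_Cmpd17b it ran from 2.74 to 10.6 CPM with a median of 4.77. All 4 groups overlapped, and the widest spread was in the BPH/2J mice. The strain difference was 0.44 ± 0.26 under vehicle (edgeR adjusted p = 0.267) and -0.08 ± 0.30 under Cmpd17b (adjusted p = 0.910). Csf1r was the steadier of the pair, with vehicle means of 26.7 ± 5.10 CPM in 7 BPN/3J and 28.1 ± 4.49 CPM in 7 BPH/2J mice, and Cmpd17b means of 29.4 ± 2.86 CPM in 5 BPN/3J and 30.5 ± 2.82 CPM in 6 BPH/2J mice. Its strain difference was 0.07 ± 0.10 under vehicle, with a 95% interval from -0.13 to 0.27, and 0.10 ± 0.11 under Cmpd17b, with an interval from -0.13 to 0.33. Neither general marker was called in any comparison, and the intervals do not show that Csf1r was alike in the strains.

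Mrc1 encodes CD206, the mannose receptor that clears glycoproteins. It rose in vehicle-treated BPH/2J mice. Its level ran from 14.9 to 23.3 CPM with a median of 18.9 in BPN_vehicle and from 20.3 to 27.8 CPM with a median of 23.8 in BPH_vehicle. Of the 7 BPH_vehicle libraries 5 lay above every BPN_vehicle library. The log2 difference was 0.32 ± 0.10 (edgeR adjusted p = 0.0253). Within batch 1 alone it was 0.35 ± 0.11 (adjusted p = 0.0301) and within batch 2 alone 0.22 ± 0.14 (adjusted p = 0.455, with 2 libraries a group). The call was lost without BPH_vehicle replicate 6 (adjusted p = 0.0788), BPN_vehicle replicate 2 (0.0547) or BPN_vehicle replicate 6 (0.0641). It was also lost without the 3 libraries with hepatocyte transcripts (0.29, adjusted p = 0.130), which include both BPN_vehicle libraries of batch 2. Under Cmpd17b Mrc1 was at 19.5, 18.9, 19.1, 23.0 and 23.8 CPM in the BPN_Cmpd17b libraries and ran from 20.6 to 40.0 CPM with a median of 24.1 in BPH_Cmpd17b. The groups overlapped, 3 of the 6 BPH_Cmpd17b libraries lying above every BPN_Cmpd17b library, and the difference of 0.25 ± 0.11 was not called (adjusted p = 0.158).

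Cd163 encodes the haemoglobin-haptoglobin scavenger receptor, and it was lower in BPH/2J mice on Cmpd17b. The BPN_Cmpd17b libraries were at 11, 8.46, 8.98, 10.9 and 9.04 CPM, while BPH_Cmpd17b ran from 4.28 to 9.23 CPM with a median of 7.04. All but 1 of the 6 BPH_Cmpd17b libraries lay below every BPN_Cmpd17b library. Cd163 fell by 0.51 ± 0.15 on the log2 scale (edgeR adjusted p = 0.0231). Within batch 1 alone the difference was -0.51 ± 0.17 (adjusted p = 0.0505), and the call was lost without BPH_Cmpd17b replicate 2 (adjusted p = 0.0667), BPN_Cmpd17b replicate 1 (0.0674) or BPN_Cmpd17b replicate 4 (0.0686). Under vehicle Cd163 ran from 5.63 to 9.74 CPM with a median of 8.26 in BPN_vehicle and from 5.05 to 8.43 CPM with a median of 6.36 in BPH_vehicle. These ranges overlapped widely, and the difference of -0.26 ± 0.14 was not called (adjusted p = 0.207).

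Timd4 encodes TIM-4, a receptor for phosphatidylserine on dying cells, and had low counts, 20 to 102 per library. Its mean under vehicle was 1.36 ± 0.383 CPM in 7 BPN/3J and 0.887 ± 0.338 CPM in 7 BPH/2J mice, and under Cmpd17b it was 1.76 ± 0.533 CPM in 5 BPN/3J and 0.926 ± 0.267 CPM in 6 BPH/2J mice. Under Cmpd17b the BPN/3J libraries were at 1.16, 1.80, 1.64, 2.61 and 1.59 CPM and the BPH/2J libraries ran from 0.582 to 1.34 CPM with a median of 0.857. Of the 5 BPN_Cmpd17b libraries 4 lay above every BPH_Cmpd17b library. Timd4 fell by 0.94 ± 0.28 (edgeR adjusted p = 0.0188). Within batch 1 alone the difference was -0.84 ± 0.29 (adjusted p = 0.0632), and without BPN_Cmpd17b replicate 4 it was -0.76 (adjusted p = 0.0913). Under vehicle the difference of -0.61 ± 0.25 missed the threshold (adjusted p = 0.0860), with BPN_vehicle from 0.996 to 1.95 CPM and BPH_vehicle from 0.485 to 1.47 CPM, and it was called without BPH_vehicle replicate 3 (adjusted p = 0.0232).

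Timd4 and Cd163 are also high in liver macrophages, so the liver markers are given beside them. In the Cmpd17b comparison the 6 hepatocyte markers summed to between 2.02 and 4.47 CPM in BPN_Cmpd17b and between 1.19 and 3.38 CPM in BPH_Cmpd17b, far below the 3 BPN_vehicle libraries named above, and under vehicle all 5 hepatocyte markers tested were called lower in BPH/2J. The 3 markers of liver macrophages and sinusoids (Clec4f, Stab2 and Clec4g) summed to between 0.751 and 1.32 CPM in BPN_Cmpd17b and between 0.640 and 0.951 CPM in BPH_Cmpd17b, and Clec4f was at 0 in 1 BPH_vehicle library and above 0 in all others. Clec4f, the marker of liver macrophages, lay lower in BPH/2J as Timd4 and Cd163 did, by -1.31 ± 0.52 under vehicle (edgeR adjusted p = 0.0766) and -1.48 ± 0.56 under Cmpd17b (adjusted p = 0.0839), and fell in the contrast averaged over both treatments (-1.39 ± 0.38, adjusted p = 0.00577), at 0 to 20 counts per library. Without the 3 BPN_vehicle libraries rich in hepatocyte transcripts, the difference under vehicle was -0.47 for Timd4 (adjusted p = 0.346) and -0.20 for Cd163 (adjusted p = 0.493), and the averaged difference was -0.69 (adjusted p = 0.0230) and -0.35 (adjusted p = 0.0410). The part of liver material in the levels of Timd4 and Cd163 was not tested.

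Lyve1 encodes a hyaluronan receptor and Folr2 the folate receptor beta. Both had higher means in BPH/2J with no call. Lyve1 was at 5.98 ± 1.26 CPM in BPN_vehicle, 6.29 ± 0.926 in BPN_Cmpd17b, 6.90 ± 1.60 in BPH_vehicle and 7.97 ± 1.91 in BPH_Cmpd17b, with strain differences of 0.21 ± 0.16 under vehicle (edgeR adjusted p = 0.411) and 0.33 ± 0.18 under Cmpd17b (adjusted p = 0.265). Folr2 was at 7.02 ± 1.59, 7.72 ± 0.956, 8.30 ± 0.958 and 8.66 ± 1.16 CPM in the same order of groups, with strain differences of 0.24 ± 0.12 (adjusted p = 0.177, and 0.0278 without BPN_vehicle replicate 3) and 0.18 ± 0.13 (adjusted p = 0.456). Averaged over both treatments Lyve1 missed the threshold (adjusted p = 0.102, and 0.0197 without BPH_Cmpd17b replicate 6), as did Folr2 (0.0886, and 0.0408 and 0.0175 without BPN_vehicle replicate 2 or 3). Of the 6 lymphatic endothelium markers, Mmrn1 rose in BPH/2J under vehicle (0.63 ± 0.21, adjusted p = 0.0376) and Ccl21a under Cmpd17b (1.35 ± 0.37, adjusted p = 0.0161). Averaged over both treatments all 6 were positive and 3 were called higher, against 13.6% of all genes. The markers summed to between 83.4 and 119 CPM in BPN_vehicle and between 103 and 140 CPM in BPH_vehicle, to between 98.1 and 107 CPM in BPN_Cmpd17b and to between 101 and 147 CPM in BPH_Cmpd17b, and none was at 0 in any library. The part of lymphatic endothelium in the levels of Lyve1 and Mrc1 was not tested.

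Ccr2, which encodes the receptor that draws monocytes out of the blood, and Lgals3, which encodes the carbohydrate-binding protein galectin-3, did not pass the test in either strain comparison. Ccr2 ran from 0.825 to 1.74 CPM with a median of 1.23 in BPN_vehicle and from 0.792 to 2.54 CPM with a median of 1.72 in BPH_vehicle. It was at 1.51, 0.347, 1.46, 0.999 and 1.76 CPM in BPN_Cmpd17b and ran from 0.740 to 9.69 CPM with a median of 1.39 in BPH_Cmpd17b. The groups overlapped, and the 9.69 CPM of BPH_Cmpd17b replicate 6, from 333 counts, stood apart from the next value of 1.58 CPM. The strain difference of Ccr2 was 0.40 ± 0.41 under vehicle (edgeR adjusted p = 0.559) and 0.59 ± 0.48 under Cmpd17b (adjusted p = 0.507), and without that library the latter was -0.0051. Lgals3 was at 2.22 ± 0.653 CPM in BPN_vehicle, 2.26 ± 0.118 in BPN_Cmpd17b, 2.58 ± 0.592 in BPH_vehicle and 2.88 ± 1.48 in BPH_Cmpd17b. Its strain differences were 0.20 ± 0.22 (adjusted p = 0.595) and 0.29 ± 0.26 (adjusted p = 0.542), the latter 0.045 without BPH_Cmpd17b replicate 6, which was at 5.68 CPM. The 95% intervals of Ccr2, from -0.44 to 1.23 under vehicle and from -0.40 to 1.57 under Cmpd17b, were the widest of the members.

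Fcgr2b encodes the inhibitory Fc gamma receptor, which dampens the response of macrophages and B cells to immune complexes, and was the one member that rose in BPH/2J under both treatments. It ran from 5.09 to 7.41 CPM with a median of 6.13 in BPN_vehicle and from 6.74 to 8.63 CPM with a median of 7.59 in BPH_vehicle. Of the 7 BPH_vehicle libraries 4 lay above every BPN_vehicle library, and the log2 difference was 0.34 ± 0.12 (edgeR adjusted p = 0.0400). Under Cmpd17b the BPN/3J libraries were at 7.17, 7.66, 6.82, 8.43 and 7.22 CPM and the BPH/2J libraries ran from 7.61 to 14.6 CPM with a median of 9.18. Of the 6 BPH_Cmpd17b libraries 4 lay above every BPN_Cmpd17b library, and the difference was 0.42 ± 0.13 (adjusted p = 0.0354). The order of group means was BPN_vehicle (5.99 ± 0.860), BPN_Cmpd17b (7.46 ± 0.620), BPH_vehicle (7.63 ± 0.626) and BPH_Cmpd17b (10.1 ± 2.59), and the middle pair differed by less than either SD.

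The calls of Fcgr2b were close to the threshold. Within batch 1 alone its strain difference was 0.27 ± 0.12 under vehicle (edgeR adjusted p = 0.134) and 0.30 ± 0.12 under Cmpd17b (adjusted p = 0.106), and within batch 2 alone it was 0.57 under vehicle (adjusted p = 0.107). Without the 3 libraries rich in hepatocyte transcripts it was 0.21 under vehicle (adjusted p = 0.316) and 0.37 under Cmpd17b (adjusted p = 0.0513). These 3 include both BPN_vehicle libraries of batch 2, so leaving them out and batch 2 alone are not separate checks. The vehicle call was lost without any one of BPH_vehicle replicates 1, 2, 3, 5 and 6 or BPN_vehicle replicates 1, 2, 5 and 6 (adjusted p up to 0.10). The call under Cmpd17b was lost without any one of BPH_Cmpd17b replicates 4 and 6 or BPN_Cmpd17b replicates 1, 2, 3 and 5 (adjusted p up to 0.0990). The direction was the same in all 26 alternatives under vehicle and all 22 under Cmpd17b.

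Fcgr2b counts were not whole numbers in most libraries, as 328.746 in 1 BPH_Cmpd17b mouse. A count that is not whole is an estimate, and the level of Fcgr2b is uncertain where its sequence is near-identical to that of other Fc receptor genes. The activating receptor gene Fcgr3 lay 0.37 ± 0.13 higher in BPH/2J under vehicle and narrowly missed the threshold (edgeR adjusted p = 0.0507), and 0.29 ± 0.15 higher under Cmpd17b (adjusted p = 0.235). Fcgr3, Fcgr1, Fcgr4 and Fcer1g, the 4 other genes of Fc gamma receptors and their shared chain, were not called in either comparison (1 at an unadjusted p under 0.05 in each). Averaged over both treatments 1 of the 4, Fcgr3, rose (0.33, edgeR adjusted p = 0.0144), against 13.6% of all genes higher. That call was lost in batch 1 alone (adjusted p = 0.0577), without the 3 libraries rich in hepatocyte transcripts (0.113) and with all 26 libraries (0.525). The 4 B cell markers in the table summed to between 2.03 and 4.11 CPM in BPN_vehicle and between 2.05 and 3.37 CPM in BPH_vehicle, and to between 1.73 and 3.32 CPM in BPN_Cmpd17b and 1.41 and 3.15 CPM in BPH_Cmpd17b, with none at 0. None of them was called in either strain comparison (0 of 4 at an unadjusted p under 0.05 under vehicle and 1 under Cmpd17b), and their part in Fcgr2b was not tested.

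In count, 2 of the 10 members were called between the strains under vehicle, both higher in BPH/2J, where 18.9% of all genes tested were called (9.16% higher and 9.73% lower). Under Cmpd17b 3 of 10 were called, 1 higher and 2 lower, where 14.1% of all genes were called (7.48% higher and 6.65% lower). The count of 2 in 10 is near the background under vehicle. The median log2 difference of the members was 0.22 in both treatments, against -0.00076 under vehicle and 0.0094 under Cmpd17b over all genes tested, with 8 and 7 members positive. Under Cmpd17b this median rested on 1 library: without BPH_Cmpd17b replicate 6 it was 0.034 with 6 of 10 positive, and in batch 1 alone 0.029. In a contrast added after the data were seen, the strain difference was averaged over both treatments, and 4 of 10 members were called, where 26.9% of all genes were (13.6% higher and 13.3% lower). Fcgr2b (0.38 ± 0.09, edgeR adjusted p = 0.00168) and Mrc1 (0.28 ± 0.08, adjusted p = 0.00529) rose, and Timd4 (-0.78 ± 0.19, adjusted p = 0.00187) and Cd163 (-0.39 ± 0.10, adjusted p = 0.00546) fell. These 4 stayed called when any 1 of the 25 libraries was left out, and within batch 1 alone (adjusted p from 0.0139 for Fcgr2b to 0.0260 for Cd163). Markers of other cells moved in the same contrast. All 6 lymphatic endothelium markers were positive and 3 were called higher (median 0.26). Of 6 fibroblast markers 5 were positive and 1 was called higher (median 0.36). Of 8 T and NK cell markers tested 3 were called higher and 1 lower. The fibroblast markers summed to between 672 and 1058 CPM in BPN_vehicle, 695 and 849 CPM in BPN_Cmpd17b, 748 and 1006 CPM in BPH_vehicle and 731 and 2002 CPM in BPH_Cmpd17b, with none at 0, and the 10 T and NK cell markers to between 1.42 and 4.83 CPM over all groups. Their part in the levels of the members was not tested. Of the markers of resident macrophages, 1 was thus higher, 2 were lower and 2 were not called.

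**Figure D2:**
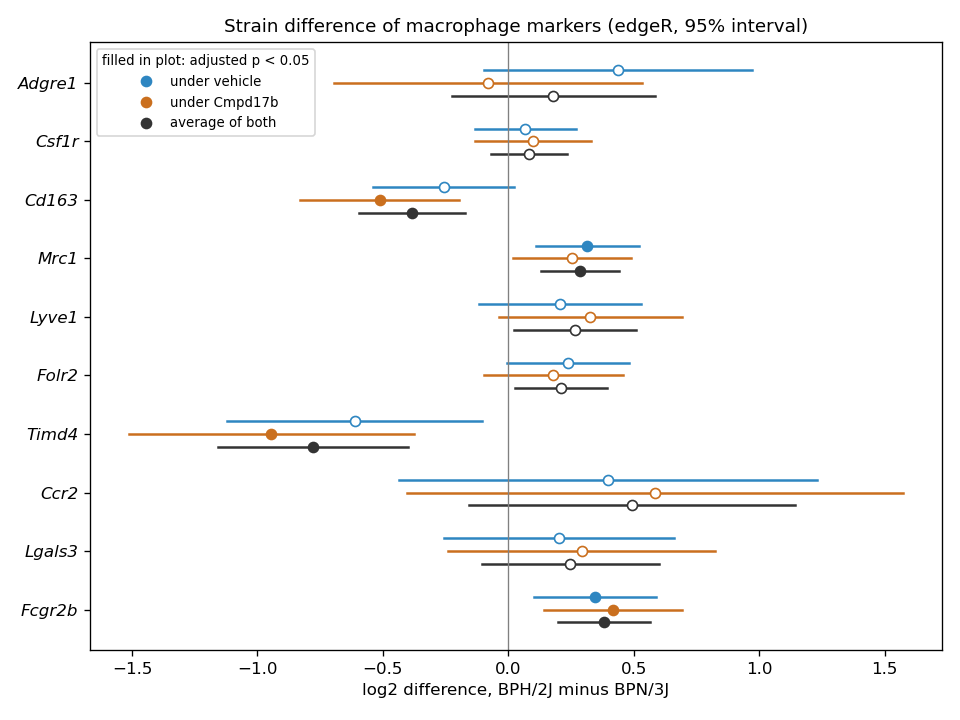
Log2 difference between BPH/2J and BPN/3J mice (horizontal axis) for the 10 macrophage markers, with 95% intervals from edgeR, under vehicle, under Cmpd17b and averaged over both, and filled points where the adjusted p was under 0.05. Fcgr2b and Mrc1 lie to the right of 0 and Cd163 and Timd4 to its left, while the intervals of Adgre1, Csf1r, Ccr2 and Lgals3 cross 0.

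Other genes of the same cells and pathways were taken from lists chosen with earlier results of these data known. Among 12 other resident macrophage genes, 1 rose and 2 fell in BPH/2J under vehicle, against 9.16% and 9.73% of all genes. Cbr2, which encodes a carbonyl reductase, rose from 11.7 ± 2.62 to 67.2 ± 9.55 CPM (2.52 ± 0.11, edgeR adjusted p = 9.33e-17), all 7 BPH_vehicle libraries lying above every BPN_vehicle library. Vsig4, a complement receptor gene, fell from 2.07 ± 0.351 to 1.03 ± 0.375 CPM (-1.0 ± 0.25, adjusted p = 0.00350). Fcna, which encodes ficolin A, fell from 3.31 ± 0.586 to 2.00 ± 0.498 CPM (-0.74 ± 0.19, adjusted p = 0.00489, and 0.111 without the 3 libraries rich in hepatocyte transcripts). The Vsig4 call held without those 3 libraries and was lost only with all 26 (adjusted p = 0.161). The part of liver material in the levels of Vsig4 and Fcna was not tested. Under Cmpd17b only Cbr2 of this list was called (2.7 ± 0.13, adjusted p = 9.32e-16), and Vsig4 (-0.79, adjusted p = 0.0547) and Fcna (-0.59, adjusted p = 0.0569) missed the threshold. The summed level of this list was 87.3 to 136 CPM in BPN_vehicle and 145 to 177 CPM in BPH_vehicle, with no overlap, while Cbr2 alone ran from 8.62 to 16.2 CPM and from 58.5 to 86.9 CPM.

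Of 20 other general macrophage and myeloid genes, 1 rose and 1 fell in each strain comparison, below the share over all genes (9.16% higher and 9.73% lower under vehicle, 7.48% and 6.65% under Cmpd17b). Lyz2, which encodes lysozyme, rose under vehicle (0.49 ± 0.15, edgeR adjusted p = 0.0229), and Tyrobp, which encodes a signalling adaptor of myeloid receptors, rose under Cmpd17b (0.63 ± 0.19, adjusted p = 0.0254). The Lyz2 call was lost without any one of BPH_vehicle replicates 3 and 6 or BPN_vehicle replicates 6 and 7 (adjusted p up to 0.0625), in batch 2 alone (0.0869), without the 3 libraries rich in hepatocyte transcripts (0.135) and with all 26 libraries (0.506). The Tyrobp call was lost in batch 1 alone (adjusted p = 0.0854), with all 26 libraries (0.373) and without any one of BPH_Cmpd17b replicates 4 and 6 or BPN_Cmpd17b replicates 1 and 2 (adjusted p up to 0.0807). Mertk, whose product is a receptor for dying cells as TIM-4 is, fell in both, from 8.97 ± 3.39 to 3.15 ± 0.545 CPM under vehicle (-1.49 ± 0.16, adjusted p = 3.53e-08) and from 8.29 ± 0.568 to 3.37 ± 0.393 CPM under Cmpd17b (-1.27 ± 0.18, adjusted p = 5.21e-06). No BPH/2J library reached the level of any BPN/3J library on the same treatment. In the averaged contrast 4 rose and 1, Mertk, fell, against 13.6% and 13.3% of all genes. Tyrobp (0.51, edgeR adjusted p = 0.00289), Maf (0.26, 0.00461), Lyz2 (0.41, 0.00945) and Itgam (0.37, 0.0266) rose. Without the 3 libraries rich in hepatocyte transcripts Lyz2 (0.0579) and Itgam (0.0797) were not called. Itgam also lost its call without BPN_vehicle replicate 1 (0.0545), and in 7 of 35 alternatives in all. With all 26 libraries none of the 4 was called. The summed level of the 20 genes, 215 to 348 CPM in BPN_vehicle and 210 to 330 CPM in BPH_vehicle, overlapped over most of its range.

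Among 16 other monocyte-derived and inflammatory macrophage genes tested, 3 rose under vehicle and 2 under Cmpd17b, with none lower in either, against 9.16% and 7.48% of all genes higher. In the averaged contrast 2 rose and 1, Thbs1, the thrombospondin 1 gene, fell (-0.88 ± 0.29, edgeR adjusted p = 0.0271), a call lost without any one of BPH_Cmpd17b replicates 1, 4 and 5 or BPN_Cmpd17b replicate 1 (adjusted p up to 0.0761). The Thbs1 call was also lost with no batch term (-0.47, adjusted p = 0.418), with no filter (0.0556) and with all 26 libraries (0.0503). Vcan, which encodes versican (0.64 ± 0.19, edgeR adjusted p = 0.0176), and Gpnmb, which encodes a membrane glycoprotein of lipid-laden macrophages (1.06 ± 0.37, adjusted p = 0.0435), were among those that rose under vehicle. Vcan (0.70 ± 0.22, adjusted p = 0.0340) and Gpnmb (1.37 ± 0.45, adjusted p = 0.0409) rose under Cmpd17b. Gpnmb was low, at 3 to 73 counts per library. The Gpnmb call under Cmpd17b was lost without any one of BPH_Cmpd17b replicates 4 and 6 or any BPN_Cmpd17b library (adjusted p up to 0.107), and that under vehicle without any one of BPH_vehicle replicates 1, 2, 6 and 7 or BPN_vehicle replicates 1, 2, 3, 4 and 6 (up to 0.130). The Vcan call under Cmpd17b was lost without any one of BPN_Cmpd17b replicates 2, 3, 4 and 5 (up to 0.0720) and without the 3 libraries rich in hepatocyte transcripts (0.0550). Without the 3 libraries rich in hepatocyte transcripts neither Vcan nor Gpnmb was called under vehicle (adjusted p = 0.197 and 0.381). The part of fibroblasts and other cells in the levels of Vcan, Gpnmb and Thbs1 was not tested. Of 7 ligand genes tested, Ccl8, a chemokine gene of resident macrophages, rose in both comparisons (1.54 ± 0.47, adjusted p = 0.0216, and 2.89 ± 0.54, adjusted p = 0.000338, respectively), and Csf1, which encodes the ligand of the Csf1r product, rose under Cmpd17b (0.40 ± 0.10, adjusted p = 0.00477). The Ccl8 call under vehicle was lost without the 3 libraries rich in hepatocyte transcripts (0.91, adjusted p = 0.249), in batch 1 alone (1.08, adjusted p = 0.180), and without BPH_vehicle replicate 7 or BPN_vehicle replicate 1 or 2 (adjusted p up to 0.0536). It was also lost without BPH_Cmpd17b replicate 6 and BPN_vehicle replicate 7 together (1.48, adjusted p = 0.0504). Ccl2, which encodes the main ligand of CCR2, was at 1.56 ± 0.634 and 1.10 ± 0.478 CPM in BPN_vehicle and BPH_vehicle (-0.48 ± 0.24, adjusted p = 0.179). Of 4 other scavenger receptor genes tested, Colec12 fell in both comparisons (-1.12 ± 0.12 and -1.11 ± 0.14, adjusted p = 4.97e-08 and 6.90e-07).

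Treatment with Cmpd17b changed no member past the threshold in either strain. The edgeR test called 0 of 10 members and 0% of all genes in BPH/2J (1 member and 287 genes at an unadjusted p under 0.05), and DESeq2 and limma voom with quality weights also called 0 genes. In BPN/3J it called 0 of 10 members and 0% of all genes (2 members and 1506 genes at an unadjusted p under 0.05), limma called 0 and DESeq2 1 gene, which was no member. Fcgr2b had the smallest p of the members in both strains, with a log2 difference of 0.41 ± 0.12 in BPH/2J (unadjusted p = 0.00200, adjusted p = 1 in edgeR) and 0.34 ± 0.13 in BPN/3J (unadjusted p = 0.0159, adjusted p = 0.514). Of the 6 BPH_Cmpd17b libraries 4 lay above every BPH_vehicle library, and 2 of 5 BPN_Cmpd17b libraries above every BPN_vehicle library. Without BPH_Cmpd17b replicate 6 the difference in BPH/2J was 0.24, and within batch 1 it was 0.28 in BPH/2J and 0.25 in BPN/3J. Cd163 differed by 0.33 ± 0.15 in BPN/3J (unadjusted p = 0.0398, adjusted p = 0.514 in edgeR) and by 0.07 ± 0.14 in BPH/2J.

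All 10 members had a positive log2 difference with Cmpd17b in each strain, where 50.9% of all genes tested in BPH/2J and 47.7% in BPN/3J were positive. The members' median was 0.12 in BPH/2J and 0.21 in BPN/3J, against 0.0020 and -0.012 over all genes. In BPH/2J this rested on 1 library: without BPH_Cmpd17b replicate 6 only 6 of 10 were positive, with a median of 0.058, and within batch 1 alone 5 of 10 were. In BPN/3J 8 of 10 were positive within batch 1 alone and without the 3 libraries rich in hepatocyte transcripts. The 95% intervals of single members ran from -0.44 to 1.27 for Ccr2 in BPH/2J, the widest there, and from -0.10 to 0.31 for Csf1r, the narrowest. Of the other macrophage lists none held a called gene with Cmpd17b, and 19 of the 20 general macrophage genes were positive in BPH/2J (median 0.21) and 13 of 20 in BPN/3J (median 0.083). The summed level of these 20 genes had a median of 278 CPM in BPH_Cmpd17b and 295 CPM in BPH_vehicle, with BPH_Cmpd17b replicate 6 at 501 CPM. Their signs without that library were not tested. The drug and strain comparisons share their vehicle libraries, so their values for a member are not independent.

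**Figure D3:**
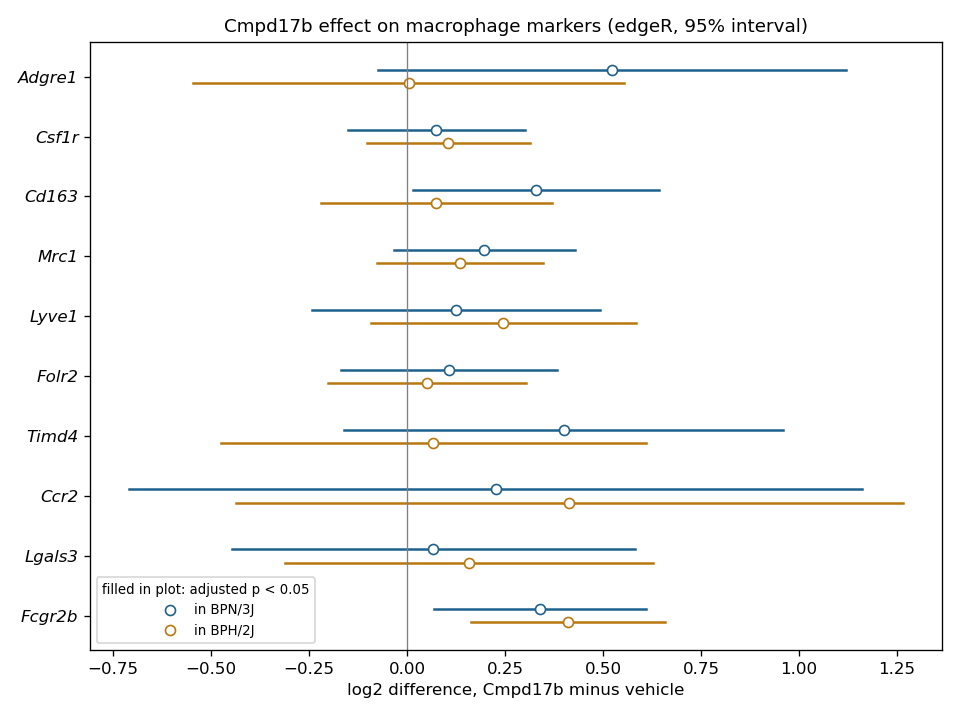
Log2 difference between Cmpd17b and vehicle (horizontal axis) for the 10 macrophage markers in BPN/3J and in BPH/2J mice, with 95% intervals from edgeR. All points are open, since no adjusted p was under 0.05, and all lie at or to the right of 0, with Adgre1 in BPH/2J at 0.0039.

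The difference of the drug effects between the strains, which tests whether Cmpd17b acted differently in hypertensive mice, was called for 0 of 10 members and 0% of all genes by edgeR (0 members and 595 genes at an unadjusted p under 0.05), and for 0 genes by DESeq2 and limma. It ran from -0.52 ± 0.40 for Adgre1 (95% interval -1.34 to 0.30) to 0.19 ± 0.63 for Ccr2 (-1.10 to 1.48). For Fcgr2b it was 0.07 ± 0.18 (-0.29 to 0.44). The intervals do not show that the members responded alike in the strains.

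BPH_Cmpd17b replicate 6 was high for several members at once. Ccr2 was at 9.69, Mrc1 at 40.0, Adgre1 at 10.6, Lgals3 at 5.68 and Fcgr2b at 14.6 CPM, each the highest of its group, while Timd4 at 0.582, Lyve1 at 5.21 and Folr2 at 7.01 CPM were the lowest of theirs. The same library had 501 CPM of the 20 general macrophage genes, against at most 385 CPM in the other 24, 144 CPM of the recruited list, against at most 87.1 CPM, and 2002 CPM of 6 fibroblast markers, against at most 1058 CPM. Their part in its member levels was not tested. Batch 2, to which it belongs, was higher than batch 1 for Mrc1 (0.34, edgeR adjusted p = 0.0104) and Ccr2 (1.06, adjusted p = 0.0438) and not called for the other 8 members. BPH_Cmpd17b replicate 6 is itself among the batch 2 libraries behind these values. In the BPH_vehicle libraries of batch 2 Ccr2 was at 1.72 and 2.12 CPM and Mrc1 at 27.2 and 24.6 CPM. In those of BPN_vehicle Ccr2 was at 1.37 and 0.832 CPM and Mrc1 at 23.3 and 21.4 CPM. The batch difference without BPH_Cmpd17b replicate 6 was not tested.

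Across mice, the members fell into a correlated set and a looser one. Pearson's r was computed for the 45 pairs of members over the 25 libraries, on log2 CPM with group means and batch removed, and 13 pairs had an adjusted permutation p under 0.05 (11 by Spearman's rho). Of these 13, 12 were among the 15 pairs of Adgre1, Csf1r, Mrc1, Fcgr2b, Lgals3 and Ccr2, where r ran from 0.38 to 0.79, and the set was named after its values were seen. Adgre1 did not pass with Fcgr2b (adjusted permutation p = 0.0521), Ccr2 (0.129) or Lgals3 (0.154). Without BPH_Cmpd17b replicate 6 the r of Adgre1 with these genes was 0.35, 0.25 and 0.23. Adgre1 and Csf1r had r = 0.79 and rho = 0.77 (adjusted permutation p = 0.00045 for both, resting on the smallest p that 100000 permutations can give), and r = 0.81 without the 2 libraries farthest from the median of Adgre1. Lgals3 and Fcgr2b had r = 0.77 and rho = 0.73 (adjusted permutation p = 0.00045 and 0.00202), and r = 0.66 without the 2 farthest libraries. Mrc1 and Fcgr2b had r = 0.74 and rho = 0.69 (adjusted permutation p = 0.00060 and 0.00315), and r = 0.59 without the 2 farthest. Without BPH_Cmpd17b replicate 6 the r of these 15 pairs ran from 0.23 to 0.75.

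Cd163, Folr2, Timd4 and Lyve1 stood outside this set. None of the 24 pairs between them and the other 6 members passed (r from -0.34 to 0.27, and from -0.17 to 0.35 without BPH_Cmpd17b replicate 6, which overlaps the range within the set), and of the 6 pairs among them only Cd163 and Folr2 did (r = 0.55, rho = 0.53, adjusted permutation p = 0.0169 and 0.0322, and r = 0.53 without the 2 farthest libraries). Folr2 and Timd4 had r = 0.47 and rho = 0.43 (adjusted permutation p = 0.0553 and 0.103). Mrc1 was thus the one marker of resident macrophages that varied across mice with Adgre1 and Csf1r past the threshold.

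**Figure D4:**
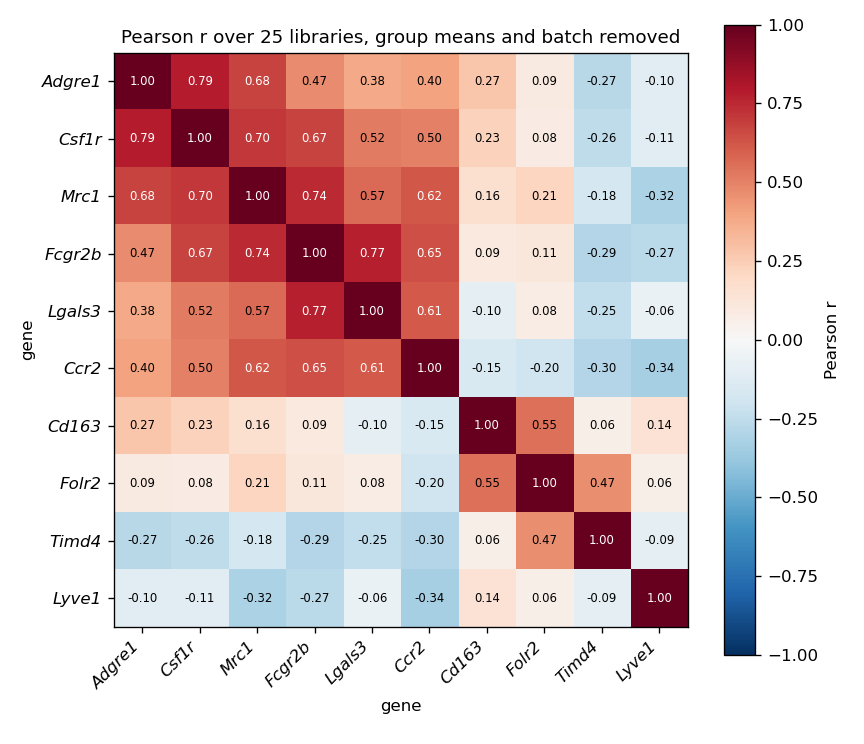
Pearson's r between the 10 macrophage markers over 25 libraries, after group means and batch were removed from log2 CPM, with red for positive and blue for negative values. The upper left block of Adgre1, Csf1r, Mrc1, Fcgr2b, Lgals3 and Ccr2 holds r from 0.38 to 0.79, and its r with Cd163, Folr2, Timd4 and Lyve1 lies between -0.34 and 0.27.

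The gene most like each member, by the same r over 25 libraries among 11211 or 11212 genes, is given as a description with no test. Genes of leukocytes headed the lists of Adgre1 (Lyz2, r = 0.84), Mrc1 (Ctsc, the cathepsin C gene, r = 0.86), Ccr2 (Ptprc, the CD45 gene, r = 0.84), Lgals3 (C1qb, a complement component gene, r = 0.87), Fcgr2b (Laptm5, r = 0.86) and Csf1r (Fcrl2, r = 0.82). For the other 4 members the leading gene was Fam76a for Cd163 (r = 0.73), Inmt for Lyve1 (r = 0.77), Gtf3c6 for Folr2 (r = 0.76) and Mrps15 for Timd4 (r = 0.66). The genes next in order were not all of leukocytes: Pi16 (r = 0.84), Sfrp1 (r = 0.83) and Layn (r = 0.82) came after Laptm5 for Fcgr2b, and Xirp2, a muscle gene, was among the 5 highest for Adgre1 (r = 0.78). For Cd163, F13a1 of the list of other resident macrophage genes (r = 0.70) came between Slc35d1 (r = 0.72) and Mcm8 (r = 0.69). With this many candidates a high r at the head of a list is a matter of selection too, and the libraries share depth and tissue composition.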

How the data were processed

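RNA with poly(A) tails was sequenced from 26 left ventricles. The authors deposited 1 table of estimated counts per gene, and the submitters' processing notes list STAR 2.7.9a, Trim Galore 0.6.7 and the build GRCm39 (mm39). For the counting program, strand setting and annotation, the version and name were not given in the sources used here. Of the deposited values 93.3% were whole and 2.21% differed from the nearest integer by over 0.01, and all were rounded for the tests. The titles give an animal number for each library, each was taken as a separate mouse, and none of 73 pairs within groups was identical.

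The kidney-like library was left out and the other 25 were fitted together in edgeR 4.0.16 (R 4.3.3) with group and batch terms, TMM scaling, edgeR's default filter on low counts (15543 of 40413 genes) and the robust quasi-likelihood test. Batch 2 held 6 of the 26 libraries and none of BPN_Cmpd17b. It held BPN_vehicle replicates 1 and 2 and BPH_vehicle replicates 1 and 7. Leaving out the 3 libraries rich in hepatocyte transcripts thus left no BPN/3J library in batch 2. Adjusted p-values are Benjamini-Hochberg over all genes tested, with a threshold of 0.05, and SE is the log2 difference divided by the root of F. DESeq2 1.42.0 and limma 3.58.1 (voom with quality weights), other scalings and filters, no batch term, each batch alone, the groups compared alone, all 26 libraries and each library left out were alternatives. The averaged strain difference was added after seeing the data. The members and lists were chosen with earlier results of these data known.

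Named genes were all 10 members, up to 4 called genes of each other list with the smallest p, and for each member the gene with the highest r among tested genes averaging 1 or more in log2 CPM. Ccl2, Fcgr3, Thbs1, Maf, Itgam, the genes after the first in likeness and the markers of other cells were named after their values were seen. Correlations used residuals of log2(CPM + 0.1) and 100000 permutations, adjusted over 45 pairs. The count tests were tested on simulated data. Promoters were 250 bases of RefSeq sequence. Of the called genes, 1 of the monocyte-derived list that is in its counts is not reported here.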

Additional observations from a re-analysis of the deposited data

Results flagged for a closer look

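Mrc1 in BPH_Cmpd17b replicate 6 was at 40.0 CPM, where the nearest of the other 5 libraries of the group was at 26.9 CPM. Ccr2 in the same library was at 9.69 CPM, where the nearest was at 1.58 CPM. Both values stood apart by the gap test applied to 40 groups of values, in which chance flags about 1 in 20, or 2 of 40.

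The library left out, labelled BPH_Cmpd17b replicate 7, was above the highest BPH_vehicle library for Lgals3 (12.0 against 3.17 CPM) and Fcgr2b (38.1 against 8.75 CPM), with the scaling taken over all 26 libraries.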

How the results depend on the processing

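No paired analysis was possible because the labels give animal numbers and no replicate numbers shared between groups. Of 2328 alternatives to 85 values of single genes, 2119 kept the direction and the side of the threshold, 136 lost and 10 gained a call, and 63 changed sign, none of them a called value. Counts of 20 to 102 for Timd4 and 10 to 333 for Ccr2 limit the precision of these genes. The cause of each change below was not tested, except that batch 1 alone and batch 2 alone hold fewer libraries.

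The 2 members called under vehicle became 0 with all 26 libraries, 0 without the 3 libraries rich in hepatocyte transcripts, 1 in batch 1 alone, 0 in batch 2 alone, 1 with no batch term, and 0 to 3 with single libraries left out. The 3 called under Cmpd17b became 0 with all 26 libraries, 0 in batch 1 alone and 1 to 3 with single libraries left out, and the 4 in the averaged contrast became 1 with all 26. Over all genes, 2936 called under vehicle became 1492 with all 26 libraries and 1168 in batch 2 alone, 2197 under Cmpd17b became 1195 with all 26 and 3405 in limma, 4183 in the averaged contrast became 2518 with all 26, and 0 for the drug in BPN/3J became 1 in DESeq2.

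For the drug in BPH/2J, signs turned with all 26 libraries for Adgre1 (-0.18), Cd163 (-0.19), Mrc1 (-0.099), Lyve1 (-0.059), Folr2 (-0.21) and Timd4 (-0.20), in batch 1 alone for Adgre1 (-0.37), Csf1r (-0.014), Mrc1 (-0.0041), Ccr2 (-0.37) and Lgals3 (-0.15), and in limma for Adgre1 (-0.29), Ccr2 (-0.12) and Lgals3 (-0.12). Adgre1 was also at -0.0023 in DESeq2, -0.00019 with RLE size factors, -0.0050 with the groups compared alone and -0.0024 without the 3 libraries rich in hepatocyte transcripts. With single libraries, or BPH_Cmpd17b replicate 6 and BPN_vehicle replicate 7 together, left out, it ran from -0.34 to 0.20 for Adgre1, -0.010 to 0.15 for Csf1r, -0.030 to 0.17 for Cd163, -0.064 to 0.27 for Timd4, -0.43 to 0.61 for Ccr2 and -0.21 to 0.26 for Lgals3. For the drug in BPN/3J, Ccr2 was at -0.063 in batch 1 alone, -0.0089 with no batch term, -0.073 with the groups compared alone and -0.0092 without the 3 libraries, and Lgals3 at -0.090 in batch 1 alone, -0.097 with the groups compared alone and -0.15 without the 3 libraries. Leaving out libraries gave -0.012 to 0.13 for Csf1r and -0.018 to 0.20 for Lgals3. The difference of drug effects for Ccr2 was -0.31 in batch 1 alone, -0.39 in limma and -0.44 to 0.39 with libraries left out. Of the strain differences, Lgals3 under vehicle was at -0.098 without the 3 libraries. Ccr2 under Cmpd17b was at -0.011 in batch 1 alone, -0.0078 with the groups compared alone and -0.0051 to 0.79 with libraries left out, Adgre1 under Cmpd17b ran from -0.31 to 0.059, and averaged Adgre1 was at -0.0015 in limma and -0.019 to 0.25 with libraries left out.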
